A study of Mus musculus with 6 samples.

Results

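Heat shock and cytosolic chaperone genes were examined in mouse T cells that had been cultured with macrophage supernatant. The members were the 40 genes, of 55401 in the count table, whose mouse symbols stood on a list of heat shock factors, heat shock proteins (HSPs), their partner proteins, subunits of the chaperonin TRiC and mitochondrial chaperones. RNA was sequenced in 6 samples. In 3 control samples the T cells received supernatant of untreated macrophages, and in 3 NF-L samples they received supernatant of macrophages that had been stimulated with NF-L (neurofilament light chain, a structural protein of nerve fibers) at 5 µg/mL for 24 h. The comparison asks how the T cells responded to supernatant of NF-L-stimulated macrophages. Any NF-L left over in it cannot be told apart here from what the macrophages release.

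All samples shared the rest of the culture. The series' design describes T cells taken from spleen by bead selection for CD8a, macrophages grown from splenic CD11b+ cells with M-CSF (50 ng/mL, 7 days), and filtered supernatant used at 50% in RPMI-1640 with 2% serum. The NF-L is described there as prepared from lysed sciatic nerve, so other nerve proteins may have been present, and no sample received the nerve preparation without macrophages or supernatant of macrophages given another protein. Mouse strain, age, the number of animals and the time of the T cells in supernatant are not given in the labels. Whether the 3 samples of a group came from separate cultures is also not given, so p-values measure only the spread between these samples, which may be technical.

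The labels call the cells T cells. Of the T-cell markers, Thy1 stood at 1575 to 1709 CPM (counts scaled to a library total of 1000000, after TMM scaling of the totals) and the T-cell receptor gene Trbc1 at 341 to 377 CPM, whereas Cd3d, Lck and Trac stayed under 6 CPM in every library. Between these lay Cd3e at 49.1 to 64.6 CPM, Trbc2 at 53.2 to 59.3 CPM and Cd3g at 6.05 to 8.86 CPM. Cd8a, the antigen of the bead selection, lay between 3.2 and 4.46 CPM and Cd8b1 between 0.87 and 1.57 CPM, both under Cd4 at 23.3 to 27.6 CPM. The CD8 label therefore had little RNA behind it. Of 11 macrophage markers, C1qa, C1qb, C1qc, Itgam and Cd14 had 0 counts in all 6 libraries and Cd68 alone passed the count filter, with a log2 fold change of −0.26 (adjusted p = 0.0494). Totals ran from 15843045 to 24639756 counts per library, and replicates of a group differed by more than sampling noise, so no library appeared to have been deposited as a copy of another. Mitochondrially encoded transcripts made up 1.65 to 1.77% of the control libraries and 1.54 to 1.60% of those with NF-L, and Cd3e was lower with NF-L (log2 fold change −0.28, adjusted p = 5.72e-04). The part of these shifts in the results that follow was not tested. In bulk RNA, fewer cells of a type and less RNA per cell cannot be told apart.

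Molecular chaperones help proteins reach and keep their fold. HSP70 binds short greasy stretches of unfolded proteins, HSP40 (J-domain) proteins deliver those clients and start its ATP cycle, and HSP110 and BAG proteins reload it with ATP. HSP90 takes over clients that are nearly folded, among them steroid receptors and kinases such as Lck, with cochaperones that set its pace. TRiC is a double ring that folds actin, tubulin and other proteins inside its cavity, and HSPD1 with its lid HSPE1 does the same in mitochondria. In stressed cells the factor HSF1 binds heat shock elements, repeats of GAA and its complement TTC, and switches on many of these genes. Activated T cells, which make protein at a high rate, also raise many chaperones without heat.

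The promoters of these genes show how the stress switch is written, and 4 windows that held the complete element of 3 alternating units are given here, with the matching letters in capitals. The windows are 30 bases of the RefSeq promoters (GRCm38.p6), on the strand of the gene. Hspd1 and Hspe1 lie head to head, and the first sequence lies in the promoters of both.
Hspe1 and Hspd1, chr1:55088053-55088082, plus strand: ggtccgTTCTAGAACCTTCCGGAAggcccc
Chordc1, chr9:18292259-18292288, plus strand: accgGAACGTTCGGGAAAATTCCTGAAgca
Hsph1, chr5:149636287-149636316, minus strand: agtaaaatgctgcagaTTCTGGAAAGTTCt
Dnajb6, chr5:29735843-29735872, plus strand: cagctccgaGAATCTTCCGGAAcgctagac
The motif searched was GAA, TTC and GAA in this order with 2 bases of any kind between them, or TTC, GAA and TTC with the same spacing, which is the same motif on the opposite strand. It was searched with no mismatch in the 250 bases before and 50 after each annotated start. Promoter entries were found for 33 of the 40 members, and 5 of the 33 genes (15.2%) held the complete element, against 0.662% of 27025 genes with an entry. The shorter motif of 1 GAA and 1 TTC with that spacing, in either order, is part of the complete element and was found in 16 of the 33 members and in 17.0% of all genes. A match of letters is no evidence of binding. Of the 5 genes with the complete element, Chordc1, Hsph1 and Hspd1 were higher with NF-L supernatant and Dnajb6 and Hspe1 did not pass the test, as described below. Of all genes tested, 3.47% were higher. The 5 genes all had a mean above 100 CPM, and of genes at that level 10.4% were higher. Of all tested members 29.7% were. Members with an entry and no complete element included Tcp1, Cct2, Cct3, Cct5 and Cct7, which were higher, and most of the uncalled members. Hsp90aa1, Hspa8 and Cct4, also higher, had no entry. Whether the element bears on the change was not tested.

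Of the 40 members, 37 had enough counts to be tested. With NF-L supernatant 11 were higher, 1 was lower and 25 did not pass the threshold (edgeR's quasi-likelihood test, Benjamini-Hochberg adjusted p under 0.05 over 14082 genes). The higher members were Hsp90aa1, Chordc1, Hspa8, Hsph1, Hspd1 and the TRiC genes Tcp1, Cct2, Cct3, Cct4, Cct5 and Cct7, and the lower one was Fkbp5. In the same test 7% of all genes were called, 3.47% higher and 3.53% lower. Without NF-L replicate 2, 6 members were higher, and without control replicate 3 or NF-L replicate 3 none was lower. Every change among the members was small, between −0.14 and 0.15 on the log2 scale, that is at most about 11% of the level. Their median log2 fold change was 0.02, against −0.00099 over all genes tested.

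Chaperone RNAs are abundant, and small changes pass a test more easily in abundant genes. Of the tested members, 29 had a mean of at least 100 CPM, and 11 of these (37.9%) were higher and 1 (3.45%) was lower. Of the 2655 genes at that level, 17.7% were called, 10.4% higher and 7.34% lower. The share of higher members stood above that of these genes and the share of lower members, which is 1 gene, did not. The list was chosen with earlier results of these data known, so this excess is no independent evidence. Levels were not matched, since the median was 420 CPM in the 29 members and 174 CPM in the 2655 genes. The cutoff of 100 CPM was chosen after the values had been seen. The 37 tested members all had at least 11 CPM in every library, so none passed the filter through 1 group alone. In 16 members the 3 NF-L libraries lay above the 3 control libraries, which 11.5% of all genes and 22.7% of genes at 100 CPM or more also did, and in 3 members they lay below, as in 11.2% of all genes and 14.7% of those at 100 CPM or more. Added together, the 40 members took 2.64, 2.63 and 2.65% of all counts in the control libraries and 2.73, 2.77 and 2.75% with NF-L supernatant. These shares did not overlap, but the sum is weighted to a few very abundant members. Mean levels rose from 4863 to 5310 CPM in Hsp90aa1 and from 3163 to 3427 CPM in Hspa8. In Hsp90ab1, the most abundant member, the groups overlapped.

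**Figure D1:**
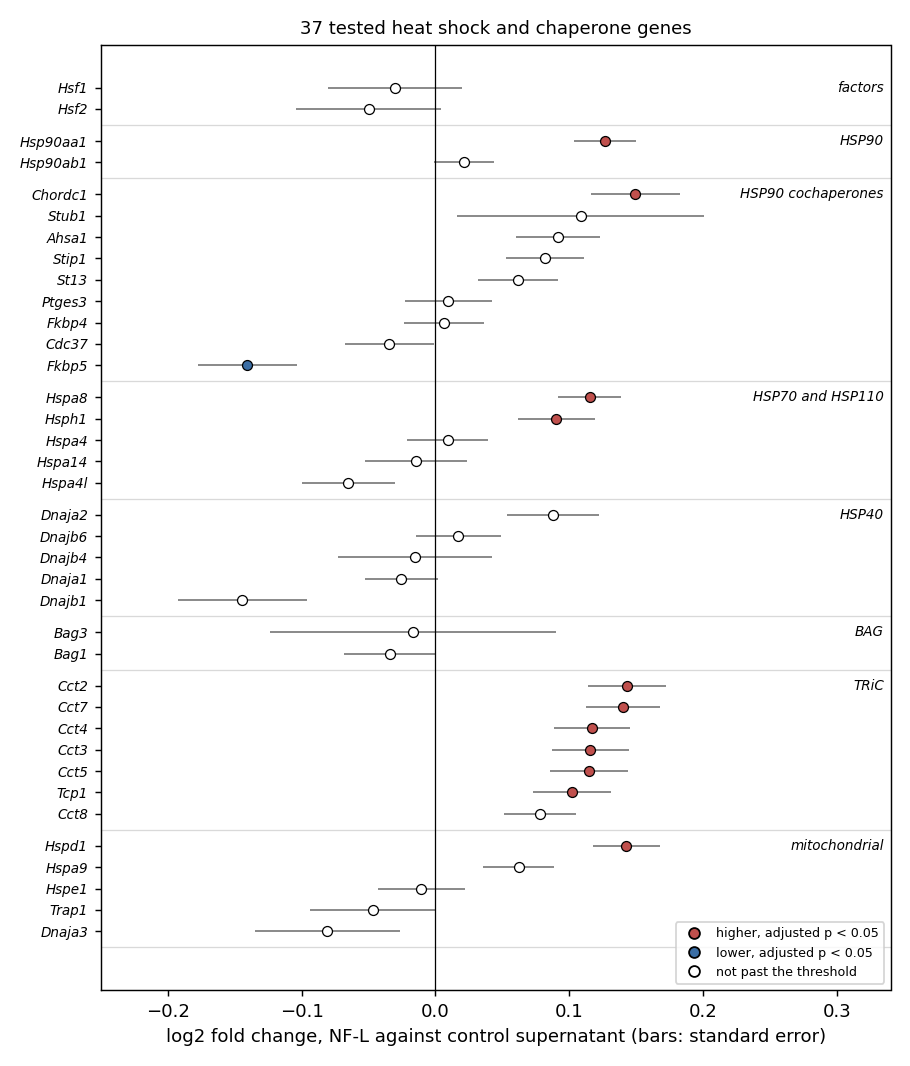
Log2 fold change of the 37 tested members (NF-L supernatant against control supernatant, horizontal axis; bars, standard error), ordered by role. The 11 filled red points are members called higher, of which 6 are TRiC subunits, and the blue point is Fkbp5 at −0.14.

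**Figure D2:**
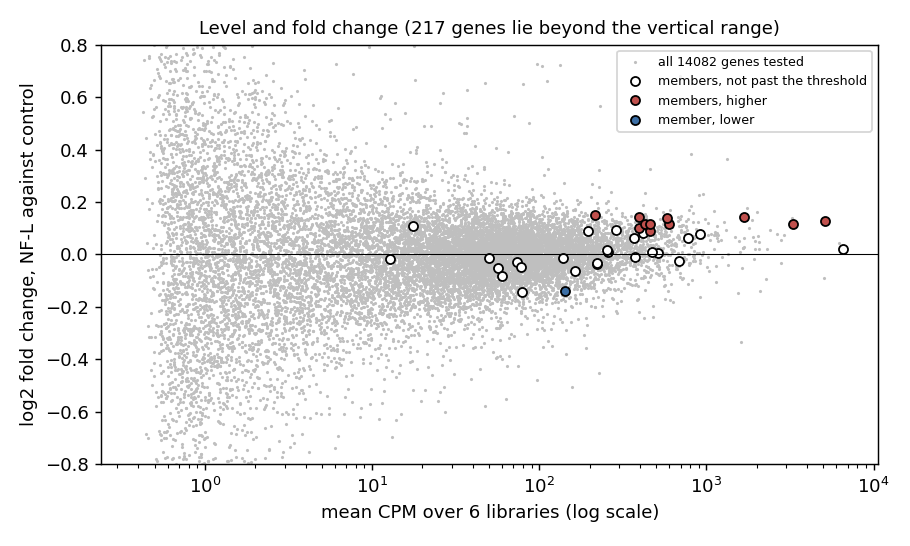
Mean level (CPM over 6 libraries, log axis) against log2 fold change for the 14082 genes tested (grey), with the members marked; 217 genes lie beyond ±0.8 and are not drawn. The members called higher all sit to the right, above 100 CPM, where a change near 0.1 stands out from a narrow cloud.

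Hsf1, the main stress-responsive factor (ENSMUSG00000022556.11, chr15:76477422-76501913, plus strand; coordinates here and below from GENCODE M21, GRCm38), did not pass the test. Its level was 70.8, 78.1 and 74.4 CPM in the control libraries and 74.0, 75.0 and 69.1 CPM in the NF-L libraries. The groups overlapped, with a log2 fold change of −0.03 ± 0.050 (SE) and an adjusted p of 0.818. Hsf2, a related factor better known from development, had a log2 fold change of −0.05 (adjusted p = 0.694). HSF1 is controlled mainly at the protein level, which RNA does not measure.

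Among the heat-inducible members, Hspa1a, Hspa1b and Hspb1 were at the floor. Hspa1a, an inducible HSP70, had 0 counts in 5 libraries and 1 count in NF-L replicate 3. Hspa1b, its neighbor and near copy, had 0 counts in all control libraries and 2, 2 and 0 counts in the NF-L libraries. The small heat shock protein Hspb1 had 0, 2 and 0 counts against 1, 0 and 1. None of these exceeded 3 counts, which corresponds to 0.122 to 0.189 CPM depending on the library, so no fold change is given, and any induction that kept them under this level was not detectable at this depth. The 150 bases before the start of each HSP70 gene show how alike the pair is, since 149 of 150 bases are equal and both hold the short element, in capitals. They were taken from the minus strand of GRCm38.p6.
Hspa1a, chr17:34972157-34972306: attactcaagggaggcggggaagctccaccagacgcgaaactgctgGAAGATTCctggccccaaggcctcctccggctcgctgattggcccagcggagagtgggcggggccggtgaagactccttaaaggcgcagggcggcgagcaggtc
Hspa1b, chr17:34959239-34959388: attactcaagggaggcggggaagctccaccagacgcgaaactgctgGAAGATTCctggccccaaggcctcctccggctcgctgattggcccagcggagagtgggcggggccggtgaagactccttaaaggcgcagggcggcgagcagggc
Over their annotated transcripts, 66.3% of the 50-base stretches of Hspa1a and 62.3% of those of Hspa1b also occur in another gene, and how reads from such stretches were counted is not given.

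Of the HSP90 genes, Hsp90aa1 passed the test and Hsp90ab1 did not. Hsp90aa1, the stress-inducible form (chr12:110690605-110702728, minus strand), was at 4789, 4893 and 4907 CPM in the control libraries and at 5197, 5433 and 5299 CPM in the NF-L libraries. Every NF-L library was above every control library, and the rise was 0.13 ± 0.023 (SE) on the log2 scale (adjusted p = 1.24e-04), or 9.18%. Hsp90ab1, the constitutive form (chr17:45567775-45573271, minus strand), was at 6620, 6407 and 6475 CPM in the controls and at 6504, 6626 and 6662 CPM with NF-L. These groups overlapped, with a log2 fold change of 0.02 ± 0.022 and an adjusted p of 0.679. Per kilobase of transcript Hsp90ab1 stayed the more abundant of the pair, at a median of 2599 RPKM (reads per kilobase, scaled to the library's total) against 1539 RPKM for Hsp90aa1. The ratio of Hsp90aa1 to Hsp90ab1 counts rested at 0.723, 0.764 and 0.758 in the controls and 0.799, 0.820 and 0.795 with NF-L, without overlap. This pair was picked after the values had been seen. Of the 50-base stretches of Hsp90aa1, 47.5% also occur in other annotated genes, against 3.44% for Hsp90ab1.

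Among 9 HSP90 cochaperones, 1 was higher, 1 was lower and 7 did not pass the test. Chordc1, a zinc-binding partner of HSP90 that is itself induced by heat (chr9:18292125-18317442, plus strand), had the largest fold change of the members. It stood at 207, 199 and 208 CPM in the controls and at 232, 227 and 222 CPM with NF-L, without overlap, a log2 fold change of 0.15 ± 0.033 (adjusted p = 0.00181). Fkbp5, a prolyl isomerase that holds the glucocorticoid receptor in its less active state and is a textbook glucocorticoid target (chr17:28399094-28517527, minus strand), moved the other way. It fell from 146, 148 and 154 CPM to 135, 138 and 134 CPM, a log2 fold change of −0.14 ± 0.037 (adjusted p = 0.0106). All 3 NF-L libraries were below the control libraries. Its close relative Fkbp4 had a log2 fold change of 0.01 (adjusted p = 0.943). Without control replicate 3 or without NF-L replicate 3, Fkbp5 missed the threshold (adjusted p up to 0.081).

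The remaining cochaperones did not pass. Ahsa1, the activator of the HSP90 ATPase, had a log2 fold change of 0.09 (adjusted p = 0.0632), and Stip1, which links HSP70 to HSP90, one of 0.08 (adjusted p = 0.083). In both the NF-L libraries lay above the control libraries. St13 (0.06), Stub1 (0.11), Ptges3 (0.01) and the kinase-specific adaptor Cdc37 (−0.03) overlapped between the groups. Stub1, a ubiquitin ligase for chaperone clients, was low, at 15.8 to 19.0 CPM, and 42.3% of its exons overlap Jmjd8 on the opposite strand.

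Of the 7 HSP70 and HSP110 genes, 5 were tested and 2 were higher. Hspa8, the constitutive HSP70 (chr9:40800984-40810087, plus strand), was at 3212, 3117 and 3161 CPM in the control libraries and 3453, 3404 and 3424 CPM in the NF-L libraries. The groups were clearly apart relative to their spread, with a log2 fold change of 0.12 ± 0.023 (adjusted p = 6.14e-04). Hsph1, the HSP110 that recharges HSP70 (chr5:149614287-149636376, minus strand), was at 456, 437 and 452 CPM against 477, 480 and 475 CPM. The groups did not overlap, but the log2 fold change of 0.09 ± 0.029 was near the threshold (adjusted p = 0.0430), and the call was lost in 8 of 14 alternative analyses, among them those without any 1 library except control replicate 1 (adjusted p up to 0.142). Hspa4, Hspa4l and Hspa14 had log2 fold changes of 0.01, −0.06 and −0.01 and did not pass. Hspa4l nevertheless had its NF-L libraries (159 to 162 CPM) below its control libraries (164 to 172 CPM). Other genes share 39.4% of the 50-base stretches of Hspa8 and none of those of Hsph1.

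No HSP40 or BAG gene passed the test. Dnajb1, the J-domain partner of inducible HSP70 and an early HSF1 target (chr8:83608193-83612653, plus strand), had the lowest fold change of the members. Its level was 82.8, 82.0 and 82.4 CPM in the control libraries and 80.1, 71.3 and 72.6 CPM with NF-L. The NF-L libraries all lay below the controls, which agreed closely, but NF-L replicate 1 stood apart from the other two, and the log2 fold change of −0.14 ± 0.048 had an adjusted p of 0.0565. It passed in 3 of 14 alternative analyses, among them the one without NF-L replicate 1. The ratio of Hspa8 to Dnajb1 counts was 38.8, 38.0 and 38.3 in the controls and 43.1, 47.8 and 47.2 with NF-L. Its separation follows from the values of each gene given above and is no further evidence. Dnaja2 had a log2 fold change of 0.09 (adjusted p = 0.12), and Dnaja1, Dnajb4 and Dnajb6 lay between −0.03 and 0.02. Bag1 (−0.03) and Bag3 (−0.02), the latter an HSF1 target at 11.3 to 13.7 CPM, overlapped between groups.

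**Figure D3:**
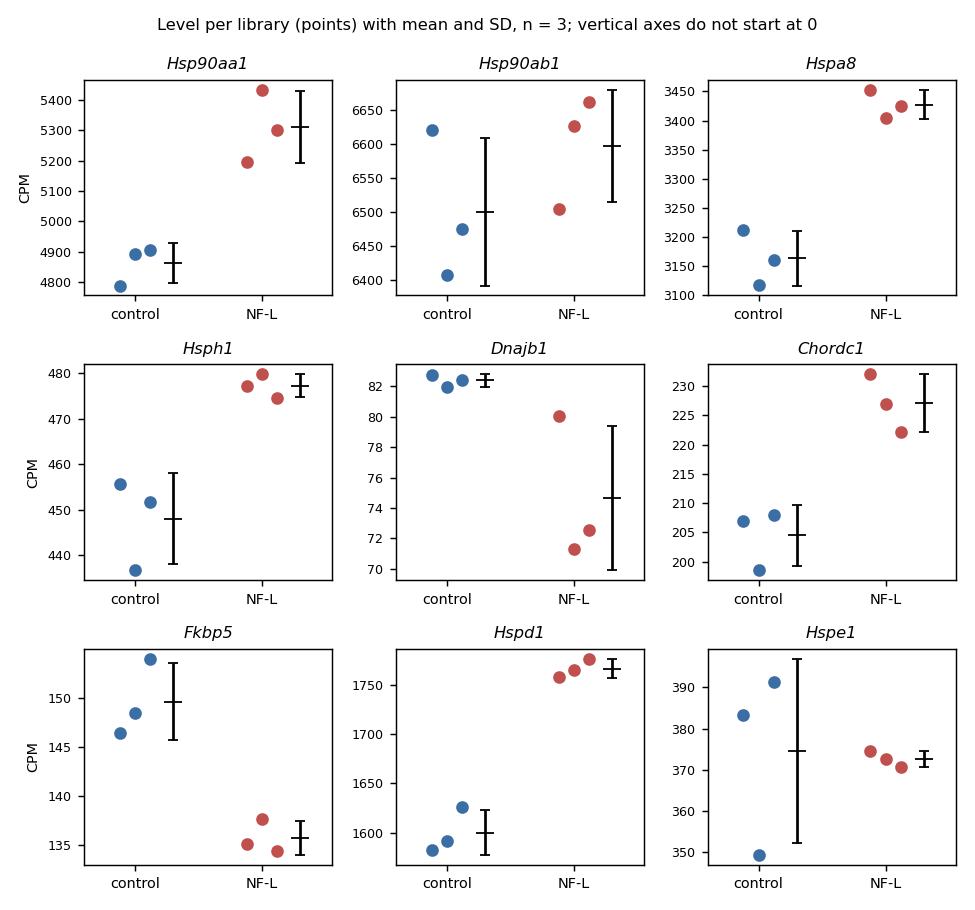
Levels of 9 members by library (CPM; points, libraries; bars, mean and SD, n = 3; axes do not start at 0). Hsp90aa1, Hspa8, Hsph1, Chordc1 and Hspd1 are above their controls in every NF-L library, Fkbp5 and Dnajb1 are below, and Hsp90ab1 and Hspe1 overlap.

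TRiC was the role in which most members moved. All 7 listed subunit genes had their 3 NF-L libraries above their 3 control libraries, and 6 of the 7 passed the test. Of all genes tested, 11.5% lay above in this way and 3.47% were called higher. Among genes at 100 CPM or more the shares were 22.7% and 10.4%. The TRiC genes, too, were listed with earlier results of these data known. Cct2 (chr10:117051001-117063814, minus strand) rose from 376, 377 and 379 CPM to 410, 423 and 416 CPM, a log2 fold change of 0.14 ± 0.029 (adjusted p = 5.97e-04). Cct7 (chr6:85451514-85468475, plus strand) rose from 545, 559 and 547 CPM to 608, 612 and 599 CPM, by 0.14 ± 0.028 (adjusted p = 4.26e-04). These 2 subunits had the largest changes of the listed TRiC genes, and both passed in all 14 alternative analyses.

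Cct4 (chr11:22990519-23003780, plus strand) was at 443, 439 and 438 CPM in the controls and 475, 484 and 471 CPM with NF-L (log2 fold change 0.12, adjusted p = 0.00537). Cct3 (chr3:88297116-88321767, plus strand) was at 413, 408 and 417 CPM and then 442, 457 and 443 CPM (0.12, adjusted p = 0.00662). Cct5 (chr15:31590800-31601804, minus strand) was at 597, 563 and 568 CPM and then 601, 640 and 630 CPM (0.11, adjusted p = 0.00793). Its groups came close, with control replicate 1 just under NF-L replicate 1.
Tcp1, which encodes the subunit CCT1 (chr17:12915701-12925067, plus strand), was at 375, 380 and 386 CPM and then 403, 411 and 411 CPM (0.10 ± 0.029, adjusted p = 0.0203). Cct8 (chr16:87483326-87495873, minus strand) was at 875, 898 and 916 CPM and then 940, 959 and 939 CPM. Its groups did not overlap either, but its log2 fold change of 0.08 ± 0.027 missed the threshold (adjusted p = 0.0648). Without NF-L replicate 2, Cct3, Cct4, Cct5 and Tcp1 missed the threshold too (adjusted p between 0.0537 and 0.0956), as Cct5 and Tcp1 did without NF-L replicate 3 and Tcp1 without control replicate 1, whereas their direction stayed.

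Cct6a, the remaining subunit of the ring, was not on the list of members and was measured with the further chaperone genes. It had 570, 571 and 562 CPM in the controls and 645, 640 and 632 CPM with NF-L, without overlap, and a log2 fold change of 0.17 ± 0.027 (adjusted p = 1.35e-05). With it, 7 of the 8 genes that make up the ring were higher, against 10.4% of genes at 100 CPM or more. The 8 genes together took 0.419, 0.422 and 0.423% of all counts in the control libraries and 0.450, 0.460 and 0.451% with NF-L, without overlap. TRiC contains 1 copy of each subunit per ring, yet its RNAs differed in level per length. The median was highest for Cct8 (387 RPKM) and Cct5 (322 RPKM), followed by Cct6a (245), Cct7 (237), Cct3 (217), Cct2 (201), Cct4 (183) and Tcp1 (161 RPKM). This order held in each of the 6 libraries, although the ranges over libraries of Cct6a and Cct7, of Cct7 and Cct3, of Cct3 and Cct2, and of Cct2 and Cct4 overlapped.

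**Figure D4:**
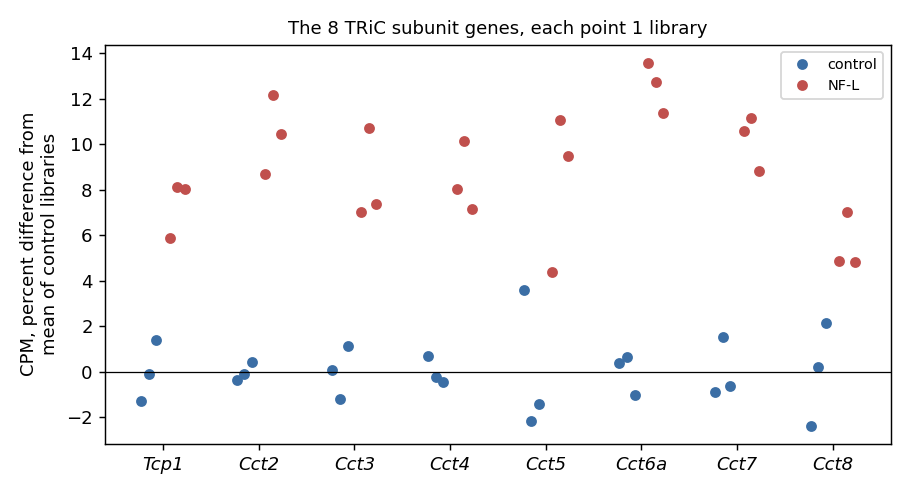
Percent difference of each library's CPM from the mean of the control libraries for the 8 TRiC subunit genes (blue, control; red, NF-L; each point is 1 library). In all 8 genes the red points lie above the blue points, and for Cct5 the nearest points are within 1 percentage point.

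Of the listed mitochondrial chaperones, only Hspd1 passed the test. Hspd1, the mitochondrial HSP60 (chr1:55077835-55088243, minus strand), had the smallest p of the members. It rose from 1583, 1591 and 1626 CPM to 1757, 1765 and 1776 CPM, a log2 fold change of 0.14 ± 0.025 (adjusted p = 5.7e-05). All NF-L libraries were above all control libraries, and the call held in all 14 alternative analyses. Hspe1, which encodes the HSP10 lid of the same chamber (chr1:55088132-55091307, plus strand), was at 383, 349 and 391 CPM in the controls and at 375, 373 and 371 CPM with NF-L. These values overlapped, with a log2 fold change of −0.01 ± 0.032 (adjusted p = 0.915), and control replicate 2 was the lowest of the 6.

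Hspd1 and Hspe1 are transcribed in opposite directions, and their annotated exons overlap by 112 bases. The annotated extent of Hspd1, to chr1:55088243, runs past the window shown above. The ratio of Hspd1 to Hspe1 counts was 4.13, 4.56 and 4.16 in the controls and 4.69, 4.74 and 4.79 with NF-L, without overlap. This ratio, too, was picked after the values had been seen. Per length, Hspd1 stood at a median of 698 RPKM and Hspe1 at 480 RPKM. Other genes share 42.1% of the 50-base stretches of Hspd1 and 22.8% of those of Hspe1. The pseudogene Hspd1-ps3 was listed with 65 to 120 counts per library and did not pass the test (log2 fold change 0.40, adjusted p = 0.19).

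Hspa9, the mitochondrial HSP70 that pulls imported proteins inward, had log2 fold change 0.06 (adjusted p = 0.168) with its NF-L libraries (792 to 800.5 CPM) above its controls (757 to 770 CPM). Its J-domain partner Dnaja3 (−0.08) and the mitochondrial HSP90 Trap1 (−0.05) overlapped between groups.

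**Figure D5:**
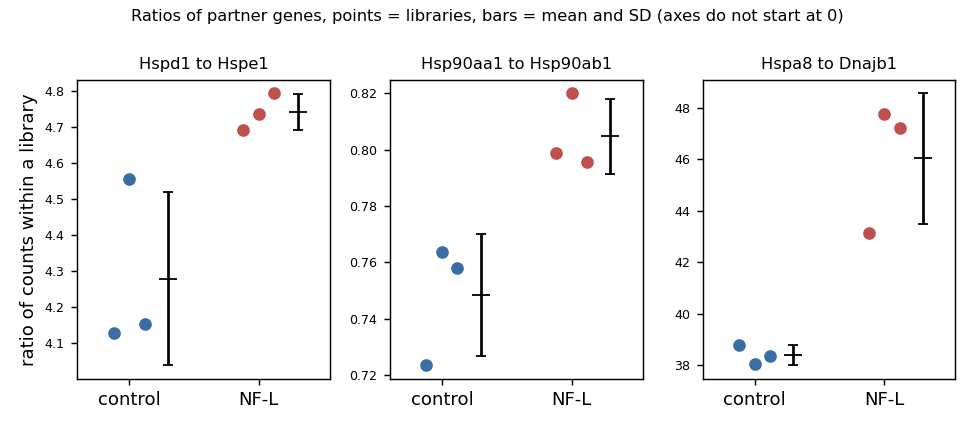
Ratio of counts within each library for 3 pairs of partner genes (points, libraries; bars, mean and SD, n = 3; axes do not start at 0). Each ratio is higher in all NF-L libraries than in all control libraries, for example 4.28 ± 0.240 against 4.74 ± 0.050 for Hspd1 to Hspe1. The pairs were picked after values had been seen.

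A further list of 76 chaperone genes held the other J-domain proteins, BAG proteins, HSP90 cochaperones, prefoldin subunits, small heat shock proteins and mitochondrial proteases. Of these, 68 were tested, 5 were higher and 1 was lower (8.82% called, against 7% of all genes). Their median log2 fold change was 0.03. Besides Cct6a, the higher genes were Pfdn4 (0.20, adjusted p = 0.00189), a subunit of prefoldin, which hands actin and tubulin to TRiC, Ppid (0.17, adjusted p = 1.91e-04), a prolyl isomerase that binds HSP90, Cacybp (0.16, adjusted p = 5.22e-04), a partner of a ubiquitin ligase, and Lonp1 (0.15, adjusted p = 0.00117), a protease of the mitochondrial matrix. Pfdn4 was at 80.9, 79.5 and 78.1 CPM in the controls and at 91.1, 89.9 and 93.2 CPM with NF-L, so its groups lay well apart. Hsf4, a factor best known from the lens, was lower (log2 fold change −0.28 ± 0.087, adjusted p = 0.0402). It had 24.2, 24.6 and 24.6 CPM in the controls and 23.9, 18.7 and 18.1 CPM with NF-L, and NF-L replicate 1 was close to the controls. Its call was lost without control replicate 1, control replicate 3, NF-L replicate 2 or NF-L replicate 3 (adjusted p up to 0.303). Of 9 tested genes of TRiC and prefoldin on this list, 2 were higher, Cct6a and Pfdn4.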

How the data were processed

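RNA of 6 mouse T-cell samples was sequenced after poly(A) selection, and the authors deposited raw read counts per gene, without normalization or pooling. The submitters' processing notes name GRCm39, R 4.2.1 and limma 3.54.2. Aligner, counter and strand setting are not given in the sources used here. Of the 55401 gene identifiers, 54349 were identical, version included, to GENCODE M21 (GRCm38), so the build used for counting was not settled here. Coordinates and transcript lengths came from M21 for the 38 members whose identifiers matched, and Hspa4l and Bag1 have none. Columns without a sample numbered 0.

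Genes were kept by filterByExpr (minimum count 10, minimum total 15), scaled by TMM (factors 0.994 to 1.007) and compared by the quasi-likelihood test of edgeR 4.0.16 (glmQLFit, glmQLFTest) in R 4.3.3. Genes with a Benjamini-Hochberg adjusted p under 0.05 were called. The biological coefficient of variation was 3.48%. CPM used TMM-scaled totals. RPKM were reads per kilobase of the longest APPRIS principal transcript scaled by the total count of the library. Totals of 15843045 to 24639756 counts put the floor of 3 counts at 0.122 to 0.189 CPM, which covers counting error only.

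Members and lists were chosen with earlier results of these data known. Members past the threshold and Hsf1, Hspa1a, Hspa1b, Hsp90ab1, Hspe1 and Dnajb1 are given by library, other members by fold change or range, and further genes where they passed. The ratios, the group of genes at 100 CPM, the shared stretches, the pseudogene and the promoter windows shown were picked after values had been seen. Replicate numbers were not used to pair the samples in the main test, and whether they mark pairs is not given in the labels. Alternatives were DESeq2 1.42.0 size factors and Wald test, library size alone, no filter, 10 counts in every library, a replicate block, thinned counts, limma-voom 3.58.1, each replicate left out and a threshold of 0.01.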

Additional observations from a re-analysis of the deposited data

How the results depend on the processing

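Of the 12 called members, 6 (Hsp90aa1, Chordc1, Hspa8, Cct2, Cct7 and Hspd1) passed the threshold in all 14 alternative analyses with a test per gene, and no called member changed sign. The other 6 missed it in at least 1. Hsph1 missed it in 8, Tcp1 in 4, Cct5 and Fkbp5 in 2 each, and Cct3 and Cct4 in 1 each. Of the 25 uncalled members, Cct8 passed in 5 alternatives, Dnajb1 in 3, and Ahsa1 and Stip1 in 1 each, and 8 changed sign in at least 1. The 5 further genes called higher passed in all 14, and Hsf4 missed the threshold in 5. Leaving out 1 library at a time gave 508 to 966 genes in all (508 without NF-L replicate 3 and 616 without NF-L replicate 2), 6 to 12 members higher (6 without NF-L replicate 2), 0 to 2 members lower (0 without control replicate 3 or NF-L replicate 3, 2 without NF-L replicate 1), 5 to 7 further genes higher, 0 to 2 further genes lower, and a median member log2 fold change of 0.015 to 0.052. The cause was not tested.

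With library size alone 372 genes were higher and 600 lower, against 489 and 497 with TMM, the median of all genes moved to −0.015, 9 members were higher and 2 lower, 2 further genes were lower, and the members' median was 0.0072. Without a filter the members' median was 0.062, since 3 genes at the floor entered it. With at least 10 counts in every library 2 members were lower. The DESeq2 Wald test called 731 genes, 12 members higher and 0 further genes lower. At a threshold of 0.01, 500 genes, 9 higher and 0 lower members, and 0 lower further genes remained. Same-numbered samples did not deviate together (correlations 0.0074 to 0.015), and with a replicate block 1049 genes, 12 members higher and 1 lower were called. Every control sample correlated best with the NF-L sample of its own number, but differently numbered samples had correlations of −0.016 to 0.0033. All of these were near 0, so whether the numbers mark pairs was not settled.

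Depth limits the statements on Hspa1a, Hspa1b and Hspb1, and the size of the changes, about 10% and less, leaves calls near the threshold dependent on single libraries.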

Other observations

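Processed copies of chaperone genes are numerous, and reads that fit both a gene and a copy can be lost or split in counting. Of the 12 called members, Cct2, Cct5 and Hsph1 share no 50-base stretch with another annotated gene, and Cct3, Cct4, Chordc1 and Fkbp5 share under 1%. Hsp90aa1 shares 47.5%, Hspd1 42.1%, Hspa8 39.4% and Tcp1 13.9%. Ptges3-ps, the copy of the cochaperone gene Ptges3, was listed with 362 to 730 counts per library and a log2 fold change of 0.02 (adjusted p = 0.926). Ptges3 itself was not called. Copies were looked up only by names with -ps, so the genes sharing most with Hsp90aa1 (Gm12346) and Hspa8 (Gm15459) were not examined. Whether copies took reads from the members was not tested.

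Of the genes fixed as markers of other cells, Klrb1c, a receptor of natural killer cells, was lower with NF-L supernatant (log2 fold change −0.51, adjusted p = 2.43e-06), while Ncr1 had 0 counts in every library and Eomes, which activated T cells can also express, was high in both groups, at 419 to 450 CPM, and did not pass the test (−0.04, adjusted p = 0.486). The B-cell genes Cd79a and Cd79b lay under 2.3 CPM, Ms4a1 and Ighm had 0 counts, and the 4 hemoglobin genes had 0 counts in all 6 libraries.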
